A study of Mus musculus with 12 samples.

Results

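The regions described here carried an interval of both MyoD and NeuroD2 in mouse P19 cells and no interval of the 3 chimeric proteins built from them. The deposited intervals of the 5 lists were joined wherever they shared at least 1 base on a chromosome, which gave 60136 regions, and a region was kept where it held MyoD and NeuroD2 intervals and none of the chimera, WC or WCS. Membership was thus selected on the presence of listed intervals, and so on the authors' values that admit an interval to a list. There were 594 such regions, 0.988% of all regions (95% Clopper-Pearson interval 0.910 to 1.07%) and 9.35% of the 6355 regions that held both MyoD and NeuroD2 (8.64 to 10.1%). The intervals given here treat regions as independent and cover counting error only.

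MyoD and NeuroD2 are transcription factors of the basic helix-loop-helix (bHLH) family, the first known for starting the skeletal muscle programme and the second for neuronal differentiation. Such proteins dimerise through the helix-loop-helix, usually with an E protein. The basic part contacts the E-box, a short DNA element whose central bases differ between family members. MyoD and NeuroD2 are known to accept some E-boxes in common and to prefer different ones otherwise. P19 is a mouse embryonal carcinoma line that can be turned toward either fate.

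Chromatin immunoprecipitation with sequencing was done in 12 libraries of P19 cells, in 6 groups of 2. The groups were cells transduced with MyoD; with NeuroD2; with MD(ND2bHLH), which is MyoD carrying the bHLH domain of NeuroD2 and is called the chimera here; with MD(ND2bHLH)WC or with MD(ND2bHLH)WCS, mutants of that chimera which are shortened here to WC and WCS and whose letters the labels do not explain; and untransduced cells, which were not analysed here. All cells were exposed to formaldehyde at 1% for 11 min after a change to Neurobasal medium, and the labels do not say whether the lines were pools or clones. For every library the labels also give polybrene at 8 µg/ml. The times they give are 24 h for a change of medium and 48 h for Neurobasal medium. MyoD and the 3 chimeric proteins were precipitated with MyoD antibodies 6196 and 6975, NeuroD2 with NeuroD2 antibodies 1165 and 1240, so antibody and protein cannot be told apart between NeuroD2 and the rest. Within each group the 2 libraries differed in antibody. Each transduced group has 1 list for its 2 libraries. No spread between replicates exists, no test was possible, and every difference below is a description of these 5 lists.

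The lists differ in ways that touch membership. MyoD had 24935 intervals, NeuroD2 31458, the chimera 14375, WC 27045 and WCS 22462. The MyoD and chimera lists held 0 intervals on chromosome X, where no region could therefore qualify, against 570 for NeuroD2, 403 for WC and 362 for WCS. The narrowest interval was 200 bases in the chimera list, 53 in the NeuroD2 list and 54 in the lists of both mutants. Of the 594 regions 3 had a MyoD interval under 200 bases, or 0.505%, against a background of 0.205% over all 6355 MyoD and NeuroD2 regions. A NeuroD2 interval under 200 bases was found in 14, or 2.36%, against a background of 1.02%, and none had both. Read depth is unknown, so absence from a list means that no interval was listed, not that the protein was absent from the DNA.

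MyoD and NeuroD2 regions were most often absent from the chimera list, the shortest of the 5. Of the 6355 MyoD and NeuroD2 regions, 2169 (34.1%) were absent from the chimera list, 1422 (22.4%) from the WCS list and 1119 (17.6%) from the WC list. The 594 regions were 27.4% of those absent from the chimera list (25.5 to 29.3%), 41.8% of those absent from the WCS list (39.2 to 44.4%) and 53.1% of those absent from the WC list (50.1 to 56.0%). A single chimeric list separated a further 252 regions from this class in the case of the chimera, 269 in that of WC and 161 in that of WCS. The size of the class depended on where the lists end: it was 175 regions with all lists shortened to equal length, 278 with the top 50% of every list and 55 with the native lists alone cut to their top 50%.

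The class ranked lower in both native lists than the MyoD and NeuroD2 regions with a chimeric protein, and its median was lower in rank in the NeuroD2 list than in the MyoD list. Each interval carries a value from the authors, read here as −log10 of a p-value, and values are compared only within a list, where a percentile gives the rank. Because a value decides entry into a list, the values belong to the rule and are given as a description. The MyoD value of the 594 regions ran from 5.04 to 154.0 with a median of 9.42, the 43.7th percentile of the MyoD list (95% interval of the median 40.7 to 46.6). The NeuroD2 value ran from 5.03 to 51.8 with a median of 7.48, the 31.0th percentile of the NeuroD2 list (27.1 to 32.6). The 5761 MyoD and NeuroD2 regions with at least 1 chimeric protein had medians at the 67.9th percentile of the MyoD list and the 65.9th of the NeuroD2 list. None of the 594 had an infinite value, against 6 of the 5761.

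**Figure D1:**
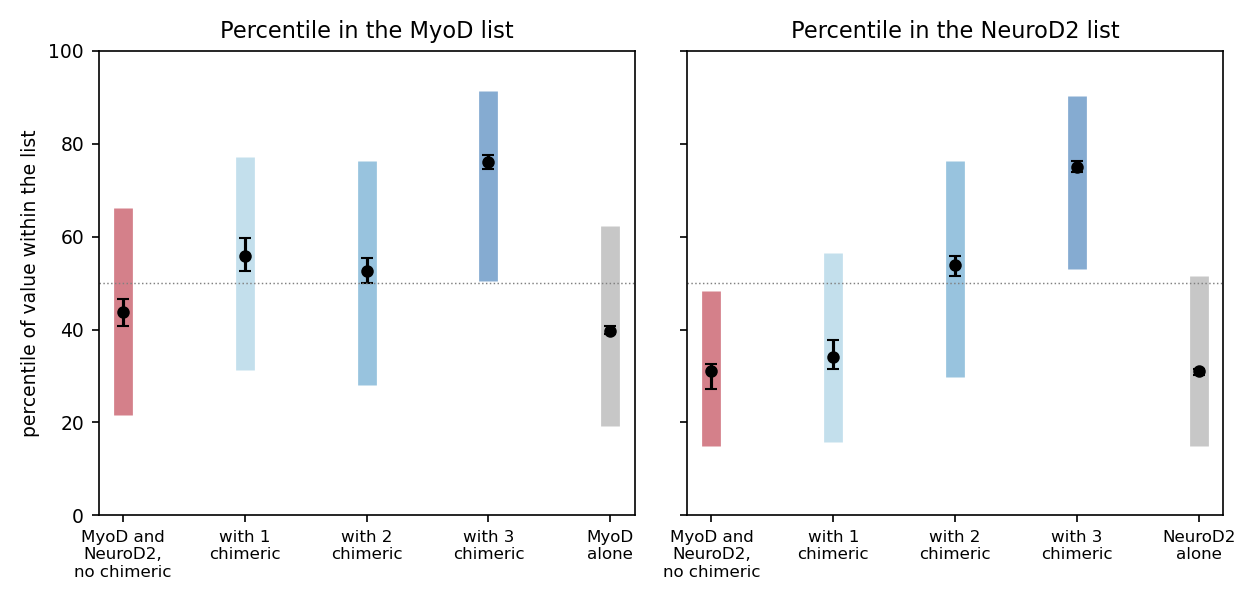
Percentile of the value within the MyoD list (left) and the NeuroD2 list (right), for MyoD and NeuroD2 regions with 0, 1, 2 or 3 chimeric proteins and for regions of 1 native factor alone; bars span the quartiles, points are medians with 95% order-statistic intervals. The regions with no chimeric protein have medians of 43.7 and 31.0, close to the 39.7 and 31.0 of the MyoD-alone and NeuroD2-alone regions.

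In rank, these regions resembled the sites that a native factor held by itself rather than the sites held by both native factors and all 3 chimeric proteins. The 10412 NeuroD2-alone regions had the same median NeuroD2 value, 7.48, and the same lower quartile, 5.88, with an upper quartile of 10.1 in the 594 regions and 10.7 in NeuroD2-alone regions. In the MyoD list the 594 regions stood slightly above the 13371 MyoD-alone regions, with medians of 9.42 and 8.79 and upper quartiles of 15.5 and 14.0. Regions with 1 chimeric protein had a median NeuroD2 percentile of 34.1, regions with 2 had 53.8 and regions with all 3 had 75.05. In the MyoD list the corresponding percentiles were 55.9, 52.5 and 76.1, so that list showed no step between 1 and 2 chimeric proteins.

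The 594 regions lay near the entry threshold of a list more often than MyoD and NeuroD2 regions as a whole. All values exceed 5. Each list was divided by value into 5 equal bins, with bin 1 the lowest and bin 5 the highest, so that each holds about 20% of its list. In the MyoD list 136 regions, or 22.9% (19.6 to 26.5%), fell in bin 1, against a background of 12.8% over all 6355 MyoD and NeuroD2 regions. That interval includes the 20% of the MyoD list itself, and 3574 of the 13371 MyoD-alone regions fell in this bin. In the NeuroD2 list 207 regions, or 34.8% (31.0 to 38.8%), did so, against a background of 13.7%, and regions with 1 chimeric protein had a like share, 32.8% (29.3 to 36.5%). Both values were in bin 1 in 44 regions, 7.41% (5.43 to 9.82%), with a background of 2.09%. In regions with 1 chimeric protein the share was 5.28% (3.72 to 7.23%), and this interval overlaps that of the 594. At the other end, 76 regions (12.8%) were in bin 5 of the MyoD list and 20 (3.37%) in bin 5 of the NeuroD2 list, where the backgrounds were 33.5% and 29.8%. With 1 chimeric protein these shares were 22.7% (19.6 to 26.1%) and 5.72% (4.10 to 7.73%). Since the values chose these regions, the gaps to the background are descriptions of the selection.

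The values of both factors were nearly unrelated within the class. Spearman's rho between the MyoD and the NeuroD2 value was −0.0314 over the 594 regions and 0.111 over the other 5761, a description across regions that share their libraries. Of the 594 regions, 262 (44.1%) were outside the top 50% of both lists, 195 (32.8%) in the top 50% of the MyoD list only, 82 (13.8%) in the top 50% of the NeuroD2 list only and 55 (9.26%) in the top 50% of both. The backgrounds in the same order were 15.3%, 22.5%, 20.3% and 41.9%, and regions with 1 chimeric protein had 29.3%, 37.2%, 15.0% and 18.5%. The MyoD percentile was the higher of the pair in 359 of the 594 regions, 60.4% (56.4 to 64.4%), against a background of 52.9% and 66.1% in regions with 1 chimeric protein (62.4 to 69.7%). A MyoD value of 30 or more was found in 43 regions, 7.24%, with a background of 26.8%, and a NeuroD2 value of 30 or more in 11, 1.85%, with a background of 24.3%. Both values were under 10 in 236 regions, 39.7%, with a background of 13.4%. In the same order, regions with 1 chimeric protein had 17.4%, 4.11% and 25.7% under these cutoffs of value.

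**Figure D2:**
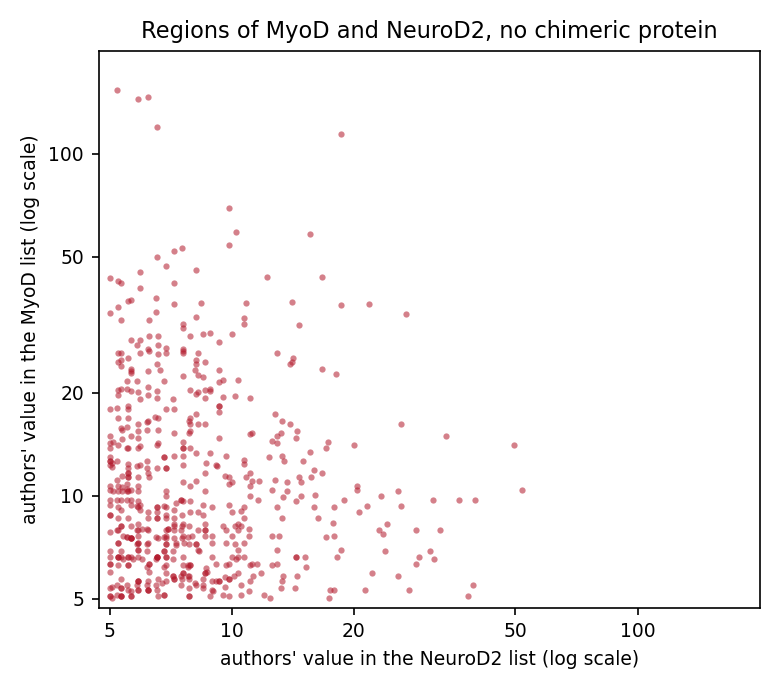
The authors' value in the MyoD list against that in the NeuroD2 list, both on log axes, 1 point for each of the 594 regions. The values form no common trend (rho −0.0314), MyoD values reach 154.0 and NeuroD2 values 51.8, and 236 of the 594 points lie under 10 on both axes.

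The share of MyoD and NeuroD2 regions that no chimeric protein held followed the NeuroD2 value more steeply than the MyoD value. From bin 1 to bin 5 of the MyoD list the share was 16.8%, 14.5%, 12.6%, 7.94% and 3.57%. From bin 1 to bin 5 of the NeuroD2 list it was 23.8%, 18.4%, 9.78%, 4.81% and 1.05%. A high MyoD value beside a low NeuroD2 value left more regions without a chimeric protein than the reverse. In bin 5 of MyoD and bin 1 of NeuroD2, 26 of 212 regions were in no chimeric list, 12.3% (8.17 to 17.5%). In bin 1 of MyoD and bin 5 of NeuroD2, 6 of 198 were, 3.03% (1.12 to 6.48%). The class held 1 of the 781 regions in bin 5 of both lists, or 0.128% (0.00324 to 0.711%), and 44 of the 133 in bin 1 of both, or 33.1% (25.2 to 41.8%). Both lists also differ in their antibodies, and protein and antibody cannot be told apart in this comparison.

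**Figure D3:**
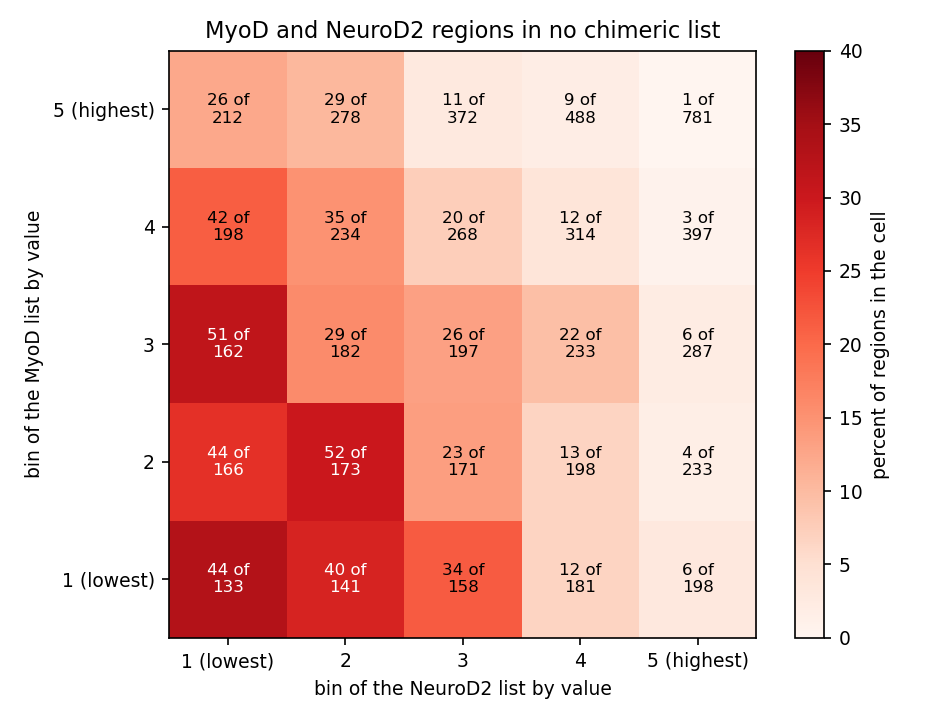
MyoD and NeuroD2 regions divided by 5 bins of value in the MyoD list (rows) and of the NeuroD2 list (columns); colour gives the percent of regions in no chimeric list and the text gives their number of all regions in the cell. The share is highest at low values of both factors, 44 of 133, and lowest where both are high, 1 of 781.

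At like rank in 1 native list, a region that both native factors held was less often without a chimeric protein than a region of a single native factor. In bin 5 of the MyoD list, 3.57% of regions with NeuroD2 were in no chimeric list (2.82 to 4.44%), against 44.1% of regions without NeuroD2 (42.3 to 45.9%). In bin 1 the shares were 16.8% with NeuroD2 and 86.5% without. In bin 5 of the NeuroD2 list, 1.05% of regions with MyoD were in no chimeric list (0.645 to 1.62%), against 10.7% of regions without MyoD (9.77 to 11.6%). In its bin 1 the shares were 23.8% with MyoD and 66.6% without. Over all 60136 regions 40.5% were in no chimeric list. In each of the 10 bins the share was lower in the regions with both factors than in the regions with 1. The bins match rank in 1 native list only. The same lists set membership, so these shares are a description and no test.

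**Figure D4:**
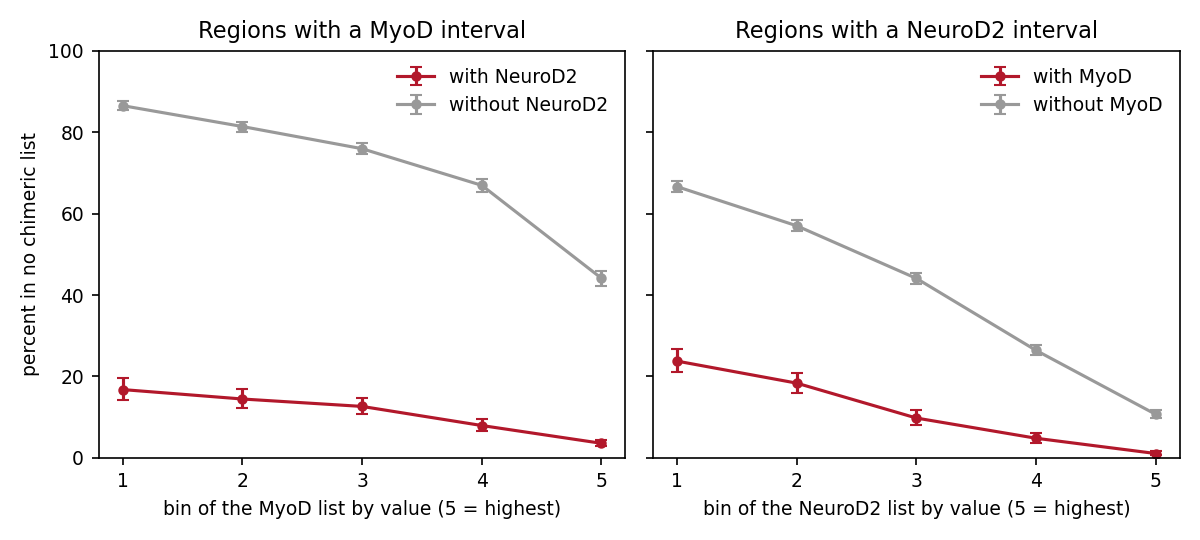
Percent of regions in no chimeric list by bin of the MyoD list (left) and of the NeuroD2 list (right), for regions with (red) and without (grey) the other native factor; bars are 95% Clopper-Pearson intervals. The share is lower with the other factor in all 10 bins, for example 3.57% against 44.1% in bin 5 of the MyoD list.

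The 10 regions with the best lower rank of the pair show what the upper end of the class looks like (coordinates are 1-based in mm9, and no gene was placed because the annotation used here belongs to another build). The first lay on chromosome 5 from 36655975 to 36656500, with a MyoD value of 34.0 at the 87.5th percentile and a NeuroD2 value of 26.9 at the 82.2nd percentile, and it was the single region of the class in bin 5 of both lists. Its nearest chimeric-protein interval was one of the chimera, 1686 bases away. The next lay on chromosome 19 from 57047240 to 57047638, with values of 36.4 for MyoD and 21.7 for NeuroD2 and a WC interval 1049 bases away. Chromosome 11 held the third, from 60597666 to 60598433, with values of 36.0 for MyoD and 18.6 for NeuroD2, and the fourth, from 82715027 to 82715818, with 113.8 for MyoD and 18.6 for NeuroD2. The fifth, on chromosome 1 from 53214541 to 53214964, had the MyoD and NeuroD2 centres 1.5 bases apart and no chimeric-protein interval within 34258 bases. In all 5 the MyoD percentile was the higher.

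The other 5 of this list were more mixed. On chromosome 16 from 10651887 to 10652373 the values were 43.5 for MyoD and 16.7 for NeuroD2, on chromosome 12 from 101801585 to 101802192 they were 23.5 and 16.7, and on chromosome 2 from 118359795 to 118360215 they were 58.2 and 15.6. NeuroD2 ranked higher in the remaining pair. Chromosome 5 from 107484489 to 107484956 had 16.2 for MyoD and 26.1 for NeuroD2. Chromosome 12 from 86216591 to 86217196 had 14.9 for MyoD and 33.6 for NeuroD2, with a chimera interval of value 56.1 at a distance of 8250 bases.

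The 3 highest MyoD values of the class stood beside NeuroD2 values in bin 1 of that list. A region on chromosome 7 from 74530001 to 74530800 had a MyoD value of 154.0, at the 99.4th percentile, and a NeuroD2 value of 5.21, at the 3.58th percentile, the widest gap of ranks in this direction. Chromosome 13 from 37783871 to 37784345 had 146.8 for MyoD and 6.21 for NeuroD2. Chromosome 17 from 44645118 to 44645606 had 144.6 for MyoD and 5.88 for NeuroD2. The nearest chimeric-protein interval was 11480, 10346 and 37859 bases away. Next in the gap of ranks came chromosome 5 from 124649194 to 124649929, with 43.2 for MyoD, and chromosome 17 from 6107286 to 6107648, with 34.3 for MyoD, both at the lowest NeuroD2 value listed, 5.03. Of the 76 regions in bin 5 of the MyoD list, 26 were in bin 1 and 29 in bin 2 of the NeuroD2 list. Among all 2131 MyoD and NeuroD2 regions in bin 5 of the MyoD list, 212 were in bin 1 and 278 in bin 2 of the NeuroD2 list. Over the whole class, 207 of the 594 regions were in bin 1 and 185 in bin 2 of that list. The MyoD and NeuroD2 values were nearly unrelated over the class (rho −0.0314).

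The regions with the highest NeuroD2 values had middling MyoD values. Chromosome 2 from 26396745 to 26397440 had 10.4 for MyoD and 51.8 for NeuroD2, with a WCS interval 5531 bases away. Chromosome 16 from 45796927 to 45797345 had 14.0 for MyoD and 49.6 for NeuroD2, with a WC interval of value 27.3 at 1803 bases. Chromosome 6 from 49940444 to 49940906 had 9.72 for MyoD and 39.7 for NeuroD2. The gap of ranks in favour of NeuroD2 was widest on chromosome 10 from 61406147 to 61406905, with 5.09 for MyoD and 38.1 for NeuroD2, then on chromosome 8 from 91179237 to 91179665, with 5.48 for MyoD and 39.3 for NeuroD2, and on chromosome 5 from 113515468 to 113515988, with 5.30 for MyoD and 27.3 for NeuroD2. At both of the first 2 places another NeuroD2 interval lay close by, 383 and 237 bases from the region.

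In bases, the centres of both native factors lay about as close in these regions as elsewhere. Relative to the widths of their intervals they lay less close than in the other 5761 regions pooled. The rule asked only for 1 shared base and made no use of the centres, though overlap limits how far apart they can be. The MyoD and NeuroD2 centres were a median of 42.5 bases apart in the 594 regions (quartiles 18.6 and 89.0, 95% interval of the median 39.0 to 47.0), and 40 bases apart in the other 5761 regions (quartiles 18 and 86.5, interval 38.5 to 41.5). Centres lay within 50 bases in 332 regions, 55.9% (51.8 to 59.9%), against a background of 58% and 56.2% in regions with 1 chimeric protein. The centre distance was also divided by the mean of the MyoD and NeuroD2 widths in a region. As a percent, its median was 13.1% in the 594 regions and 9.83% in the others, whose intervals were wider. For a single pair that mean is the largest distance at which the intervals still overlap. Several intervals of a list had their widths summed. In 38 of the 5761 others the MyoD and NeuroD2 intervals were joined only through a chimeric-protein interval. The percent was not computed for regions with 1 chimeric protein, whose centres were a median of 43.25 bases apart (38.5 to 48.0). Their median MyoD and NeuroD2 widths were 379 and 297 bases. One interval lay wholly inside the other in 320 regions, 53.9% (49.8 to 57.9%), with a background of 61.4% and 62.2% in the other 5761 regions. Regions with 1 chimeric protein had 60.4% (56.6 to 64.1%). In 51 of the 594 regions (8.59%) the centres were 200 bases apart or more, a share that was not computed for the others.

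The distance did not follow rank. Spearman's rho between the lower percentile of the pair and the centre distance was −0.0346 in the 594 regions and 0.000591 in the others, again as a description. The median distance was 36.5 bases in the 55 regions in the top 50% of both lists, 47.5 in the 195 with a high MyoD value only, 37.5 in the 82 with a high NeuroD2 value only and 41.5 in the 262 low in both. In the other MyoD and NeuroD2 regions the same 4 medians were 39.5, 43.2, 40 and 38 bases.

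**Figure D5:**
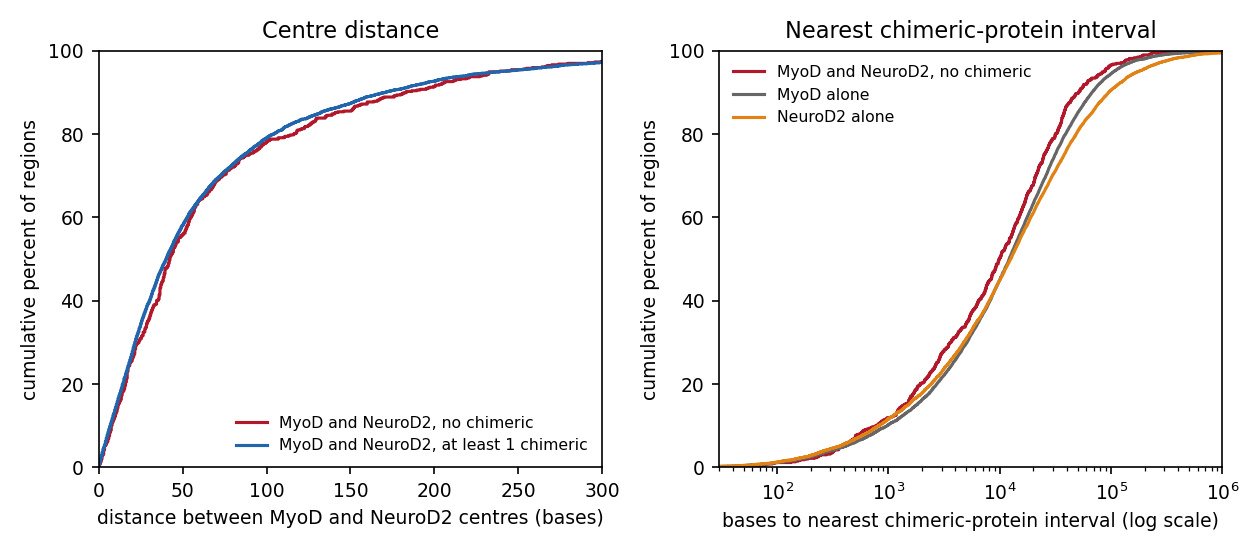
Left, cumulative percent of regions by the distance between the MyoD and NeuroD2 centres in bases, shown to 300 bases; right, cumulative percent by the distance to the nearest chimeric-protein interval in bases, on a log axis. Regions with and without a chimeric protein have nearly the same curve of centre distances, with medians of 42.5 bases without and 40 with; the distance to a chimeric-protein interval has medians of 9870 bases for the 594 regions, 12154 for MyoD alone and 12492 for NeuroD2 alone.

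The intervals were narrower than in the pooled regions with a chimeric protein, and on the NeuroD2 side they were close to those of regions with 1 chimeric protein. The MyoD intervals had a median width of 359 bases in the 594 regions, 379 in regions with 1 chimeric protein and 397 in all 5761 others. The NeuroD2 intervals had medians of 293.5 bases (288 to 302), 297 bases (288 to 308) and 388 bases in the same order. MyoD-alone regions had a median of 337 bases and NeuroD2-alone regions 292. The MyoD interval was the wider of the pair in 414 regions, 69.7% (65.8 to 73.4%), against a background of 56.1% and 71.7% in regions with 1 chimeric protein. Width went with value in the class, with a rho of 0.605 for MyoD and 0.640 for NeuroD2, so width and value are not separate measures here. Merged width, which the chimeric intervals can stretch in the other regions, had a median of 394 bases. Of the 594 regions 587 were a single MyoD and a single NeuroD2 interval, and 7 held more.

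The widest regions owed their width to MyoD. Chromosome 3 from 115954577 to 115956389 had a MyoD interval of 1813 bases that contained a NeuroD2 interval of 208 bases, with the centres 713.5 bases apart. Chromosome 11 from 4960772 to 4962506 had a MyoD interval of 1735 bases around a NeuroD2 interval of 305 bases, and chromosome 6 from 99470931 to 99472255 had one of 1325 bases around one of 250 bases.

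The inner edge of the rule is set by the overlap of the MyoD and NeuroD2 intervals. The smallest MyoD and NeuroD2 overlap was 4 bases, on chromosome 16 from 56717273 to 56717955, followed by 25 bases on chromosome 18 from 38509620 to 38510227 and 32 bases on chromosome 15 from 100900070 to 100900634. Under 100 bases were shared in 15 regions (2.53%) and under 200 bases in 75 (12.6%). These counts were not computed for the other regions. The lower quartile of the overlap was 221 bases in the 594 regions and 270 in the other 5761. On the outer edge, the MyoD and NeuroD2 regions with the least overlap with a chimeric protein shared 156 bases with WCS on chromosome 2 from 103129570 to 103129952, 159 bases with WC on chromosome 19 from 14946023 to 14946446 and 168 bases with WCS on chromosome 15 from 87509174 to 87509562. The chimeric values there were 5.52, 5.68 and 5.03. Of the other 5761 regions 35 had a best overlap of under 200 bases with a chimeric protein.

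A single chimeric protein kept some regions out of the class. Its value was often in bin 1 of its own list for WCS and WC, but not for the chimera. Bin 1 holds about 20% of a list by definition, and no other background was computed. The 161 regions with WCS alone had a median at the 19.4th percentile of the WCS list, and 85 of them (52.8%) were in its bin 1. The 269 regions with WC alone had a median at the 26.5th percentile of the WC list, with 100 (37.2%) in its bin 1. The 252 regions with the chimera alone had a median at the 45.8th percentile of the chimera list, with 40 (15.9%) in its bin 1. These chimera regions also had the highest MyoD rank of the 3 sets, with a median percentile of 69.7, and a NeuroD2 percentile of 28.1. In the 594 regions these medians were 43.7 and 31.0.

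Chimeric-protein intervals lay within 500 bases and 1 kb of these regions about as often as around regions of a single native factor, and somewhat more often within 10 kb and 100 kb. An interval of any chimeric protein began or ended within 500 bases of 41 regions, 6.90% (5.00 to 9.25%), against a background of 6.36% over the 24377 regions in no chimeric list. Within 1 kb it was 71 regions, 12.0% (9.45 to 14.8%), with a background of 10.9%. Within 10 kb it was 299 regions, 50.3% (46.2 to 54.4%), with a background of 45.1%, and within 100 kb 574 regions, 96.6% (94.8 to 97.9%), with a background of 92.9%. By class, the share within 10 kb was 50.3% for the 594 regions, 45.0% for MyoD-alone and 44.9% for NeuroD2-alone regions, and within 100 kb it was 96.6%, 94.5% and 90.6%. By protein, within 10 kb of the 594 regions lay a WC interval in 239 cases (40.2%), a WCS interval in 212 (35.7%) and a chimera interval in 176 (29.6%). That is the order of the lengths of these lists. In the same order the shares were 35.5%, 31.5% and 26.7% for MyoD-alone regions and 38.4%, 34.3% and 22.0% for NeuroD2-alone regions.

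The regions nearest to a chimeric protein lay under 100 bases from it. On chromosome 1 from 155155268 to 155155663, with values of 9.72 for MyoD and 11.6 for NeuroD2, a chimera interval lay 40 bases away, a WCS interval 194 and a WC interval 373 bases away. On chromosome 5 from 113515468 to 113515988, already named, a chimera interval of value 5.91 lay 62 bases away. On chromosome 4 from 151482006 to 151482438, with 24.2 for MyoD and 13.9 for NeuroD2, one of value 5.15 lay 67 bases away. At the far end, chromosome 1 from 20048385 to 20048768 had 17.4 for MyoD and 12.8 for NeuroD2 with no chimeric-protein interval within 495858 bases, chromosome 7 from 97624391 to 97624723 had 12.6 and 5.21 with none within 311377 bases, and chromosome 15 from 88229403 to 88229816 had 16.2 and 8.26 with none within 284091 bases.

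As for MyoD-alone and NeuroD2-alone regions, the closest chimeric-protein interval belonged more often to a region with NeuroD2 than to one without it. This majority was thus not particular to the class. NeuroD2 had the longest of the 5 lists, and the share over all regions with a chimeric protein was not computed. For the 299 regions with one within 10 kb, that neighbour held NeuroD2 without MyoD in 114 cases (38.1%), both native factors in 81 (27.1%), MyoD without NeuroD2 in 55 (18.4%) and neither in 49 (16.4%). For MyoD-alone regions the same shares were 31.7%, 24.4%, 20.4% and 23.6%, and for NeuroD2-alone regions 51.6%, 16.0%, 9.12% and 23.2%. Another MyoD interval lay within 10 kb of 295 regions, 49.7% (45.6 to 53.8%), with a background of 51.4%, and another NeuroD2 interval within 10 kb of 298, 50.2% (46.1 to 54.3%), with a background of 53.4%.

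The regions were spread over all 19 autosomes. Chromosome 11 had the most, 62, which were also the highest share of its MyoD and NeuroD2 regions, 11.5% (8.95 to 14.5%). Chromosome 15 had the lowest share, 19 of 307 or 6.19% (3.77 to 9.50%), and chromosome 19 had the fewest, 12 of 190. The intervals of the highest and the lowest share overlap. Of the 594 regions 95 (16.0%) lay within 100 kb of another of the class and 8 (1.35%) within 10 kb. No window of 100 kb held more than 2. Among the other 5761 regions, a far larger set, 66.7% lay within 100 kb and 22.4% within 10 kb of one another. Among the 21 windows with 2, those with the widest member started at 25400001 on chromosome 3, where NeuroD2 had 32 intervals and MyoD 2, at 102100001 on chromosome 11, with 6 MyoD and 3 NeuroD2 intervals, and at 119100001 on chromosome 2, with 7 MyoD and 11 NeuroD2 intervals. Windows of 100 kb with 10 or more intervals of any list held 72 of the 594 regions, 12.1%, and 12.4% of the other 5761.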

How the data were processed

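The submitters' processing notes name BWA 0.7.5, CASAVA 1.8.2 and build mm9. Which caller made the lists, against which background, with which filters and from which combination of a group's 2 libraries is not given in the sources used. The authors deposited 5 lists, 1 for each transduced group, with a value for each interval that no header names and whose range fits −log10 p-values. The value was used only to rank intervals within a list; equal values share a percentile, the percent of the list at or below them. Where a region held several intervals of a list, the highest value was taken, and the centre distance came from the pair with the largest overlap. Read depth is unknown.

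Regions were connected intervals sharing at least 1 base. The joining was tested on simulated data and checked with bedtools on the deposited lists. Shares have Clopper-Pearson intervals and medians have order-statistic intervals, both at 95% and for counting error only. The regions, the lists compared and the naming rule were chosen with earlier results of these data known. The rule names the 10 regions with the highest lower percentile, the 3 at each end of value, of rank gap, of distance to a chimeric-protein interval, of width and of overlap, and the leading windows and chromosomes. E-boxes, sequences and gene lists were planned and not run, since they need mm9 sequence and annotation that were not used here. The software was matplotlib 3.10.9, scipy 1.17.1, numpy 2.4.6, pandas 2.3.3 and Python 3.11.15.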

Additional observations from a re-analysis of the deposited data

How the results depend on the processing

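The results were recomputed under 9 other settings, of which 1 was chosen after seeing the data, intervals of 200 bases or wider. No paired analysis was possible because each group has 1 list and no result comes from a test, and no replicate could be left out for the same reason. Nothing moved beyond the interval of its value, or 1.5 times for the count, with an overlap of 50% of the shorter interval, autosomes without the narrowest and widest intervals, dense windows left out, or intervals of 200 bases or wider, where the class held 576, 596, 522 and 599 regions. With centres at most 100 bases apart it held 539 regions, the median centre distance was 34.5 bases and the median width 374 bases, as that rule requires close centres, and the share with a chimeric-protein interval within 1 kb was 24.3%, since an overlapping interval with a distant centre then counts as near. With the chimeric lists widened by 500 bases, 8.45% of MyoD and NeuroD2 regions were in the class and 5.42% had such an interval within 1 kb.

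The class depended most on the thresholds of the lists. With the top 50% of every list it held 278 regions, 10.5% of MyoD and NeuroD2 regions, with median values of 18.3 for MyoD and 15.0 for NeuroD2, a width of 477.5 bases and a share within 1 kb of 8.63%. Of these, 55 were among the 594, so the others entered as chimeric intervals were removed. With only the native lists cut to their top 50% it held 55 regions, 2.07%, with 14.9 for MyoD and 14.1 for NeuroD2, 14.5% in bin 1 of both lists, a centre distance of 36.5 bases, 7.27% within 1 kb and a width of 433 bases. With lists of equal length it held 175 regions, 6.47%, of which 61 were among the 594, with 14.9 for MyoD and 16.1 for NeuroD2, 8.00% within 1 kb and a width of 462 bases. Ranked within the lists as cut, the MyoD median stayed above the NeuroD2 median in all 9 alternatives, at the 38.9th and the 29.3rd percentile with equal lengths. The share in the class stayed higher at bin 5 of MyoD with bin 1 of NeuroD2 than in the opposite corner, at 12 of 127 and 2 of 83 with equal lengths and, least clearly, 0.800% and 0 of 75 with the native lists alone cut. The steeper course along the NeuroD2 list was less marked with equal lengths, where the share was 15.6% in bin 1 and 3.01% in bin 5 along the MyoD list and 15.0% and 0.920% along the NeuroD2 list. With the native lists alone cut, the difference between bins was the larger along the MyoD list, with 5.56% in bin 1 and 0.445% in bin 5, against 4.93% and 0.133% along the NeuroD2 list. The alternative window for E-boxes was not run, since no mm9 sequence was used here. Depth, which limits every absence from a list, is unknown.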
